A study of Schizosaccharomyces pombe with 40 samples.

Results

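The subtelomeric gene clusters of the fission yeast Schizosaccharomyces pombe are here genes named after 12 cosmids, most of them at or toward the ends of chromosomes I and II. Members were chosen by identifier: 129 genes carry 1 of 12 cosmid prefixes, and tlh1, eno102 and isp5 were left out by the rule, which leaves 126 of the 7013 genes in the deposited table. Measured expression played no part in the rule. The clusters are SPAC212 and SPAC977 on the left of chromosome I, SPAC186, SPAC869 and SPAC1039 on its right, SPBC1348, SPBPB8B6, SPBPB21E7, SPBPB10D8 and SPBC1683 on the left of chromosome II, and SPBPB2B2 on its right. The remaining prefix, SPBPB7E8, goes against the name: in the gene order of the RefSeq assembly ASM294v3 its 2 genes stand at places 1061 and 1063 from the nearest end, whereas the other 124 members lie within 164 genes of an end. SPBPB7E8 was kept by the rule and is given separately below.

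Subtelomeres are the stretches between the telomere repeats and the unique chromosome arm. In fission yeast they are packaged in part as heterochromatin, which carries methylated histone H3 and the HP1 protein Swi6, and they hold families of genes for transporters, small-molecule enzymes and cell surface proteins. Long blocks of sequence are shared between the chromosome ends. Among the factors that help RNA polymerase II along a gene, ELL works with its partner EAF, and Ebp1 is a further protein that binds ELL.

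PolyA RNA was measured in 17 libraries in 7 groups, from cells in mid log phase in rich medium at 32 °C. The parent ED666 is h+ and carries ade6-M210, ura4-D18 and leu1-32. Its ebp1Δ, eaf1Δ and wild-type groups have 3 libraries each and are called ED666 here. A set with the replicate suffix b, called ED666b, has 2 ell1Δ and 2 wild-type libraries of the same parent. The kanMX6 cassette marks these deletions. Pem2, with 2 ell1Δ::natMX6 and 2 wild-type libraries, is h-, shares the same adenine, uracil and leucine alleles, and also carries mat1_m-cyhS, smt0 and a cycloheximide-resistance allele of rpl42. Nothing in the labels says whether replicates came from separate cultures, so p-values measure the spread between these libraries, which may be technical.

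Depth was 6486554 to 9193169 reads in the ED666 libraries, 38150862 to 43374049 in ED666b and 35337271 to 40796006 in Pem2. The scale of the levels is called scaled CPM here: in this deposited value each read of a library is worth the same amount. Comparisons between genes use RPKM, which divides by gene length. The labels do not hold the code of the columns read as ebp1Δ, which were identified as those left over once the others had been matched. The level of ebp1 was 8.29 to 10.2 scaled CPM in ebp1Δ and 61.2 to 79.6 in ED666 wild type. For eaf1 it was 19.0 to 22.3 in eaf1Δ and 43.4 to 56.8 in ED666 wild type. For ell1 it was 16.6 and 20.6 in ED666b ell1Δ against 84.6 and 73.5 in its wild type, and 25.3 and 31.1 in Pem2 ell1Δ against 68.5 and 71.4. The ED666 wild-type replicate 3 stood apart in these clusters: 14 of the 82 members tested were over 2-fold above, and 5 over 2-fold below, both other wild-type libraries. That is 23.2% of the members, against 3.73% of all genes tested, and 1.22% to 4.88% of the members in any other ED666 library. Calls of members against ED666 wild type in limma are therefore given with and without it. Shares of reads, sums over clusters and counts of groups that do not overlap include it.

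Most members were scarce. The median of their mean RPKM over the 17 libraries was 3.13, against 28.8 for all 7013 genes. A mean of 100 scaled CPM or more was reached by 13 members and 10 or more by 53, while 50 stayed under 1. No read fell on 9 members in any library, and 9 more had no more than 3 reads in any library. The test needed 1 scaled CPM in at least 2 libraries, which 82 members met and 44 did not. Of the 82, SPAC186.08c (L-lactate dehydrogenase) reached that level in 1 group only. Together the members took 0.346% to 0.380% of the reads in ebp1Δ, 0.385% to 0.425% in eaf1Δ and 0.421% to 0.477% in ED666 wild type. The 3 ebp1Δ libraries lay below all 3 wild-type ones (0.367% ± 0.0189 and 0.441% ± 0.0307, SD, n = 3 each; two-sided exact permutation p = 0.1, the smallest that 3 against 3 allows). In eaf1Δ the ranges overlapped (exact permutation p = 0.2). In Pem2 the share was 0.447% and 0.464% in ell1Δ against 0.455% and 0.498% in wild type, and in ED666b 0.455% and 0.497% in ell1Δ against 0.458% and 0.472% in wild type, so neither pair of groups separated.

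Levels were higher farther from the chromosome end. Of the 23 members among the first 25 genes from an end, 8 were tested and the median was 0.202 RPKM. Between genes 26 and 50 the median was 0.360 RPKM over 35 members, of which 17 were tested. Between genes 51 and 100 it was 6.03 RPKM over 43 members, and beyond gene 100 it was 22.0 RPKM over 23 members, all of them tested. Repeated sequence followed the same order: 19, 21, 8 and 0 members of these 4 stretches, from the end inwards, had more than 50% of their 50-base words present more than once in the genome. Over the clusters 48 members were repeated by this measure and 78 were not. The repeated ones had a median of 0.146 RPKM and 17 were tested, whereas the others had a median of 9.79 RPKM and 65 were tested. None of the sources used here says how the authors treated reads that map to several places. The level of a repeated member is therefore uncertain, and place and repeated sequence mostly moved together. They did not at the right end of chromosome I, where 1 of 30 members is repeated: the median was 0.527 RPKM in SPAC186 (genes 21 to 35 from the end), 0.342 RPKM in SPAC869 (genes 40 to 84) and 23.5 RPKM in SPAC1039 (genes 104 to 128). The transporter genes SPBPB10D8.05c, SPBPB10D8.06c and SPBPB10D8.07c show the limit. Every 50-base word of each is found elsewhere too, yet SPBPB10D8.05c and SPBPB10D8.06c were at 0 in all 17 libraries while SPBPB10D8.07c had 9.82 to 19.7 scaled CPM.

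**Figure D1:**
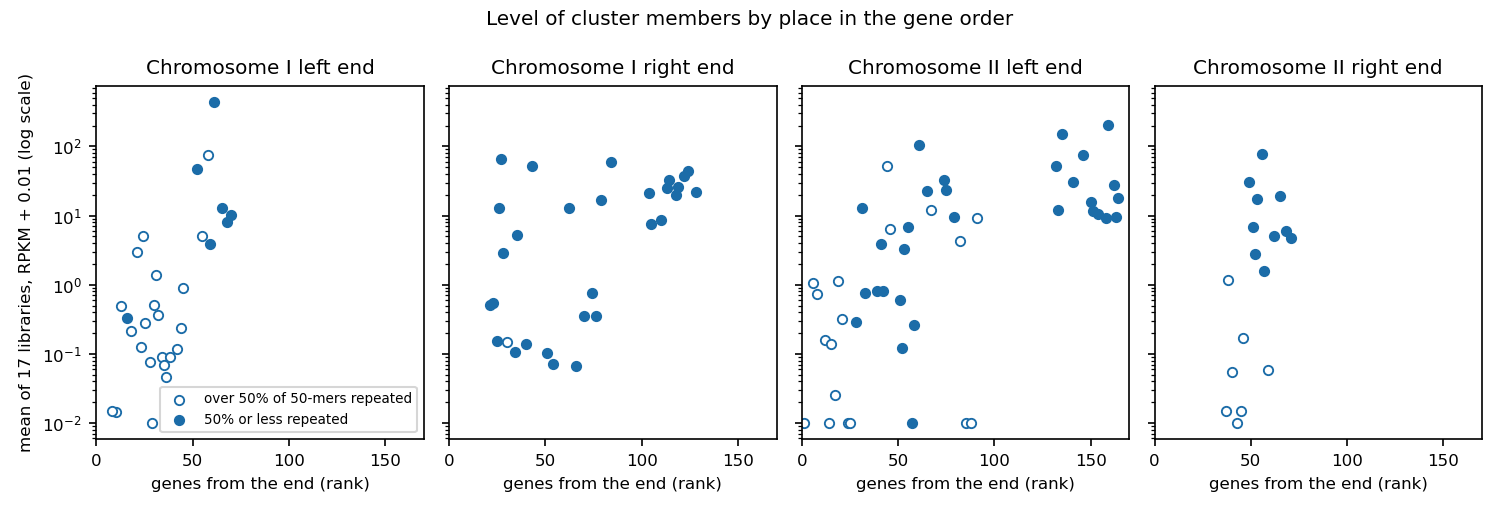
Mean level of each member over 17 libraries (RPKM + 0.01, log scale) against its place in the gene order from the chromosome end, without SPBPB7E8. Open points are members with over 50% of 50-base words repeated in the genome; they crowd among the first 50 genes at 3 of the 4 ends, and most points at the highest levels lie farther in.

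By role, enzymes were the most numerous (48 members, 37 tested, median 8.34 RPKM), followed by transporters (26 members, 21 tested, 9.79 RPKM). The 4 transcription factors were all tested, with a median of 15.4 RPKM: klf1 and cha4, zinc-cluster factors, SPBC1348.12, and grt1. The 9 pseudogenes, the 6 genes of the ftm family of transmembrane-helix proteins and the 5 cell surface proteins had medians of 0.274, 0.256 and 0.308 RPKM. The other 28 members, mostly uncharacterised, had a median of 0.306 RPKM, with 13 tested.

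A few members supplied most of the reads. The aldo-keto reductase SPAC977.14c took 14.1% of all reads on members, and the first 10 members took 54.6%. Per length, SPAC977.14c led the clusters at 437 RPKM (217 to 671 over the libraries), followed by pcl1, an iron transporter, at 201 RPKM (142 to 237). Next came amf1, a transporter, at 148 RPKM and aes1, a phenazine biosynthesis family protein, at 103 RPKM. Other clusters were led by pan5 (2-dehydropantoate 2-reductase, of pantothenate synthesis) at 77.0 RPKM, gdt1 at 66.1, cat1 (uptake of arginine and lysine) at 59.2 and the L-asparaginase SPBPB8B6.05c at 52.0. The phosphatase SPAC1039.02 led its cluster at 43.5 RPKM, SPBPB7E8.01 at 33.0, the cysteine transporter gene SPBPB10D8.01 at 32.8 and SPBC1348.12 at 12.8. In the SPAC212 cluster the highest mean was 5.12 RPKM, in SPAC212.04c (3.76 to 7.15 over the libraries).

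On loss of Ebp1 9 members fell, and 5 of these belong to 2 neighbouring clusters on the left of chromosome II, SPBPB10D8 (3 of 5 tested) and SPBPB21E7 (2 of 6). Fold changes are on the log2(scaled CPM + 1) scale, so those of scarce genes are understated, and calls are at an adjusted p of 0.05 (limma, Benjamini-Hochberg over 6160 genes). In ebp1Δ 9 of the 82 members tested fell and 0 rose; of all genes tested, 3.67% were called, as 2.74% fell and 0.925% rose. The median over the members was -0.14, against 0.01 over all genes. The 3 clusters with the lowest medians, picked out here for that, are neighbours. SPBPB10D8 had a median of -1.78 with 4 of 5 tested members negative, and -1.78 also without wild-type replicate 3. SPBPB21E7 had a median of -1.15 with 6 of 6 negative, and -0.93 with 5 of 6 negative without that library. SPBPB8B6 had a median of -1.16 with 5 of 5 negative, and no member was called. Without wild-type replicate 3 its median was -0.72, and the fluoride channel gene fex2 was called (log2 -0.66, limma adjusted p = 0.0366). Elsewhere cluster medians with all libraries lay between -0.41 (SPBC1348) and 0.07 (SPBPB2B2). In bulk RNA a lower level in every cell and expression in fewer cells cannot be told apart.

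SPBPB10D8.01, which encodes a cysteine transporter, had 18.2, 21.4 and 31.7 scaled CPM in ebp1Δ, against 78.5, 85.8 and 81.3 in wild type. The groups were far apart, and the level fell 3.43-fold (log2 -1.78, SE 0.15; limma, adjusted p = 2.51e-05). Its neighbour SPBPB10D8.02c, an arylsulfatase that releases sulfate from organic esters, had 16.4, 12.7 and 24.4 scaled CPM in ebp1Δ, against 78.7, 79.3 and 93.8 in wild type. It fell 4.65-fold (log2 -2.22, SE 0.29; limma, adjusted p = 0.000824), which was the largest fall among the members. Both calls held under all 13 alternatives run. The pseudogene SPBPB10D8.03 followed the same pattern, with 2.21, 2.70 and 6.43 scaled CPM in ebp1Δ and 15.3, 19.5 and 14.5 in wild type (log2 -1.96, SE 0.32; limma, adjusted p = 0.00413). The other SPBPB10D8 members tested, the repeated transporter genes SPBPB10D8.04c and SPBPB10D8.07c, had log2 changes of 0.07 and -0.06 and passed no threshold.

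In SPBPB21E7, the pseudogene SPBPB21E7.08 had 10.9, 8.09 and 11.4 scaled CPM in ebp1Δ, against 28.2, 29.1 and 56.6 in wild type (log2 -1.75, SE 0.27; limma, adjusted p = 0.00246). The L-asparaginase SPBPB21E7.09, which splits asparagine into aspartate and ammonia, had 17.4, 18.2 and 19.6 scaled CPM in ebp1Δ, against 29.2, 37.3 and 28.2 in wild type (log2 -0.74, SE 0.15; limma, adjusted p = 0.0144). Its sequence is 58.3% repeated. The groups did not overlap in either gene. Another 6 members of SPBPB21E7 and SPBPB8B6 were not called, though all their ebp1Δ libraries lay below wild type, as in 9.69% of all genes. The 6 are cmt2 (catechol O-methyltransferase) at log2 -1.53, SPBPB21E7.11 at -1.57, aes1 at -0.77 and, in SPBPB8B6, the transcription factor grt1 at -1.37, the acetamidase fah1 at -1.30 and the urea transporter SPBPB8B6.02c at -1.16. Their limma adjusted p lay between 0.0543 (fah1) and 0.262 (aes1). In 4 of the 6, wild-type replicate 3 was over 2-fold above both other wild-type libraries. The clearest is cmt2, with 3.08, 3.10 and 3.29 scaled CPM in ebp1Δ against 6.23, 6.39 and 31.2 in wild type. Without that library the log2 change was -0.82 for cmt2, -1.09 for SPBPB21E7.11, -0.82 for fah1 and -0.72 for SPBPB8B6.02c, and none of the 4 was called. It mattered little for grt1, which had 6.89, 5.93 and 10.9 scaled CPM in ebp1Δ against 22.3, 18.9 and 23.2 in wild type (log2 -1.31 without it). For aes1 it was the nearest to ebp1Δ, with 63.6, 65.7 and 72.7 in ebp1Δ against 123, 161 and 77.5 in wild type (log2 -1.05 without it). The remaining tested members, SPBPB21E7.02c, SPBPB8B6.05c and fex2, overlapped between the groups with all libraries.

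The other 4 called members lay elsewhere. The phosphate transporter gene pho841 had 113, 86.0 and 107 scaled CPM in ebp1Δ, against 245, 255 and 148 in wild type (log2 -1.04, SE 0.18; limma, adjusted p = 0.00653). On the right of chromosome I, yhb1, which encodes a nitric oxide dioxygenase that removes nitric oxide, had 56.7, 53.3 and 62.1 scaled CPM in ebp1Δ and 101, 109 and 154 in wild type (log2 -1.05, SE 0.22; limma, adjusted p = 0.0193). The proline transporter gene put4 had 36.7, 28.9 and 37.7 in ebp1Δ and 50.4, 51.8 and 48.9 in wild type (log2 -0.55, SE 0.13; limma, adjusted p = 0.0390). SPBC1348.07, uncharacterised and 90.6% repeated, had only 0.615, 0.809 and 0.429 scaled CPM in ebp1Δ and 2.28, 1.19 and 1.41 in wild type (log2 -0.68, SE 0.17; limma, adjusted p = 0.0387). All 4 separated, as 9.69% of all genes did in this direction, but the last has few reads in every library.

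**Figure D2:**
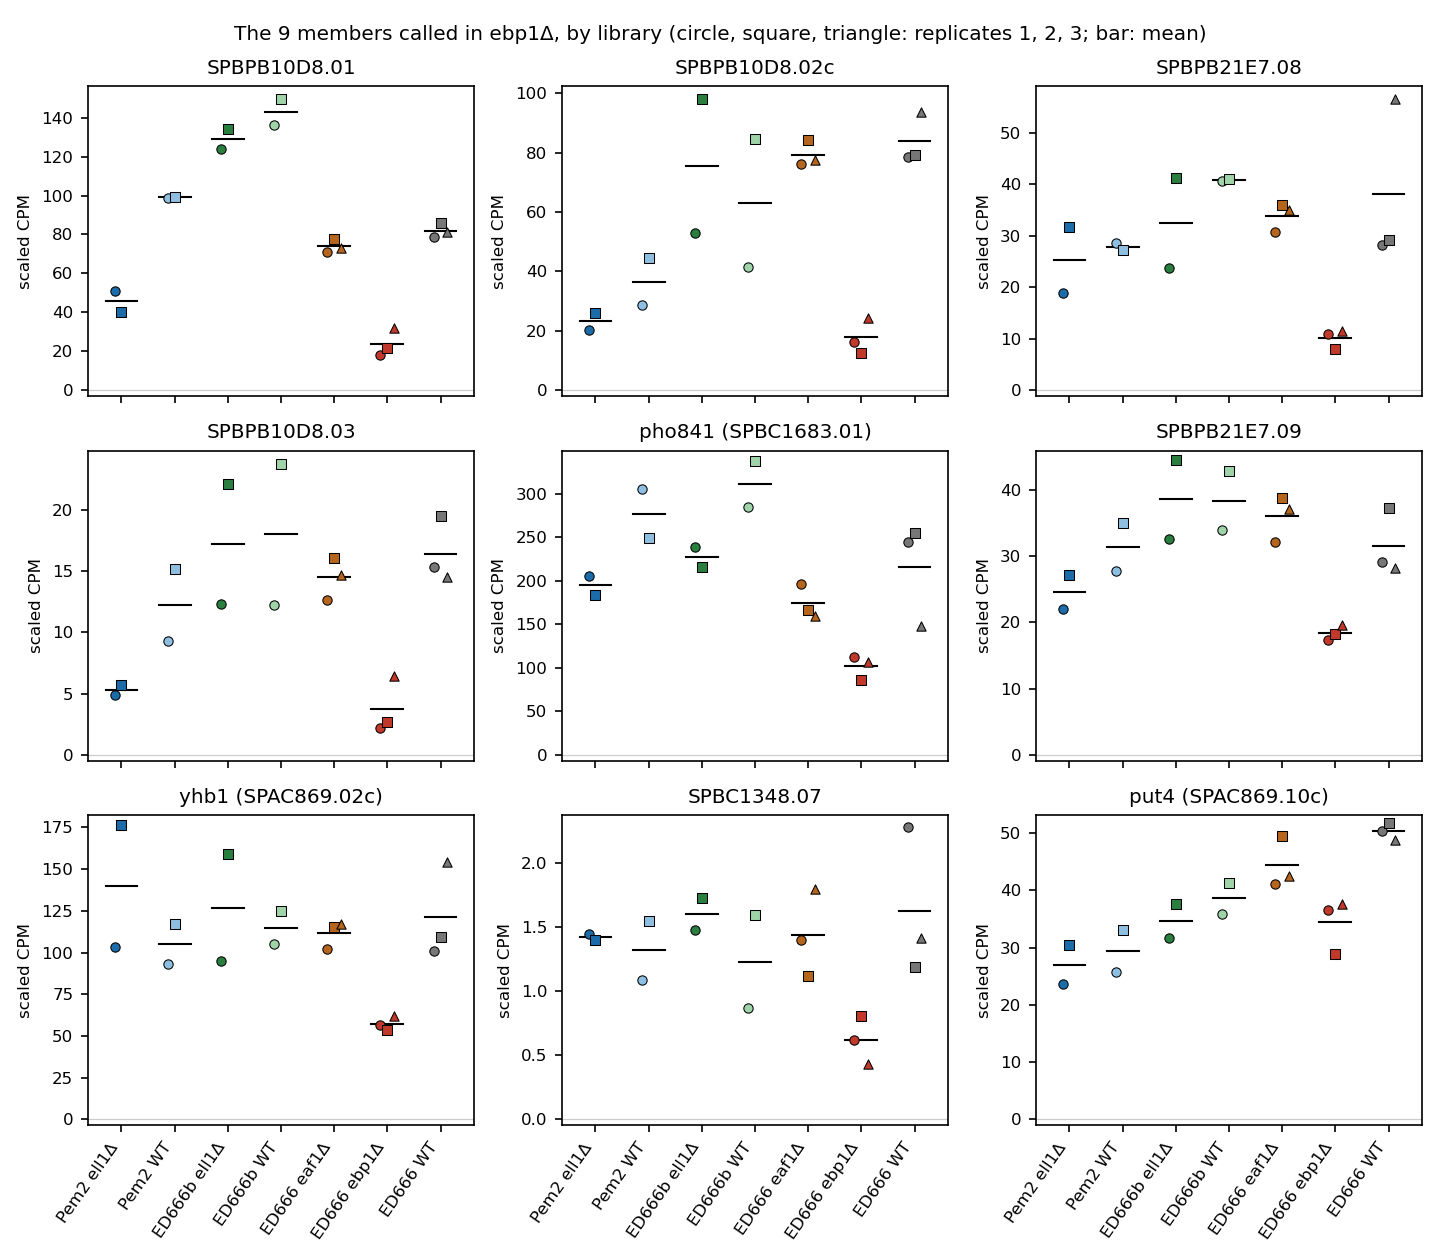
Level in scaled CPM of the 9 members called in ebp1Δ, in each of the 17 libraries, by group; marker shapes are replicate numbers and bars are means. In every panel the ebp1Δ libraries lie below all ED666 wild-type libraries, and SPBPB10D8.01 is also lower in Pem2 ell1Δ (51.0 and 40.3) than in Pem2 wild type (98.9 and 99.3).

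Summed over whole clusters, the ebp1Δ libraries lay below every wild-type library in 7 of the 12 clusters, and the mean was 3.14-fold, 2.12-fold and 1.33-fold higher in wild type for SPBPB10D8, SPBPB21E7 and SPBPB8B6. In the others of the 7 (SPBC1348, SPBPB7E8, SPAC869 and SPBC1683) it was 1.42-fold, 1.32-fold, 1.22-fold and 1.17-fold higher in wild type. Such sums are weighted to abundant members. In SPBPB7E8, SPBPB7E8.01 averaged 172.3 in ebp1Δ and 241.3 in wild type, while SPBPB7E8.02 averaged 34.2 and 32.1. The median log2 change in SPBC1683 was only -0.04. The levels of the SPBPB10D8 members summed to 57.6, 57.0 and 78.6 scaled CPM in ebp1Δ, against 197, 206 and 203 in wild type. For SPBPB21E7 the sums were 96.2, 96.7 and 110 in ebp1Δ, against 192, 238 and 211 in wild type, and for SPBPB8B6 they were 71.2, 64.6 and 76.4 against 92.5, 100.5 and 89.7. Counted over the members tested, 22 had all ebp1Δ libraries below all wild-type libraries, which is 26.8% against 9.69% of all genes, and 4 had them above, which is 4.88% against 7.73% of all genes. These sums and counts include wild-type replicate 3 and are not given without it. Through that library alone the groups overlapped in ght4 and gal10, where ebp1Δ lay above the other wild-type libraries, and in gdt1, where it lay below them.

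The number of calls turned on single libraries. Without wild-type replicate 3, 17 members were called, 12 lower and 5 higher in ebp1Δ, and 8 of the 9 calls with all libraries were among them; put4 was not. The calls over all genes grew too, to 5.97% (2.32% higher and 3.65% lower). Without ebp1Δ replicate 2, 5 were called, and the calls over all genes fell to 134 from 226. With only the compared libraries in the fit 4 were called, beside 1.06% of all genes (0.0974% higher and 0.958% lower). Of the 9 calls only SPBPB10D8.01 and SPBPB10D8.02c were kept there, so those of SPBPB10D8.03, SPBPB21E7.08, SPBPB21E7.09, pho841, yhb1, put4 and SPBC1348.07 were lost, and grt1 and nrg1 were called instead. The 5 that rose without wild-type replicate 3, chosen here after their values were seen, are the epimerase gene gal10 (log2 1.49), the sulfate transporter gene sul2 (1.28), the hexose transporter gene ght4 (0.96), the galactokinase gene gal1 (0.86) and the isocitrate lyase gene icl1 (0.54). In ght4 the pattern is plain: it had 58.9, 45.2 and 57.3 scaled CPM in ebp1Δ against 27.8, 26.2 and 149.8 in wild type, so ebp1Δ lay between replicate 3 and the other wild-type libraries. The same held for sul2 apart from its highest ebp1Δ library, with 66.7, 75.2 and 86.7 in ebp1Δ against 28.1, 33.3 and 83.3 in wild type. In the other direction gdt1 had 39.6, 37.2 and 46.0 in ebp1Δ against 89.3, 91.6 and 36.4 in wild type, and fell by 1.13 on the log2 scale without replicate 3 (limma, adjusted p = 7.96e-05), against a change of -0.70 with it (limma, adjusted p = 0.184). SPAC977.17, of the MIP family of membrane channels, likewise changed by -1.05 without replicate 3 and -0.72 with it. SPAC977.14c had 405, 281 and 318 in ebp1Δ against 632, 541 and 403 in wild type, and was not called (log2 -0.64; limma, adjusted p = 0.144). The calls of SPBC1348.07 and put4 were lost on leaving out any of 4 and any of 6 libraries. For put4 the log2 change stayed between -0.61 and -0.43 over the 13 alternatives, with adjusted p between 0.0252 and 0.173; for SPBC1348.07 the adjusted p lay between 0.0270 and 0.179. The call of yhb1 was lost without ebp1Δ replicate 1 or replicate 2, with an adjusted p of at most 0.0801, and that of SPBPB21E7.09 without ebp1Δ replicate 2, at most 0.0560. At an adjusted p of 0.05, 20 of the 126 members were lower and 0 higher in ebp1Δ in the authors' deposited table, which is 15.9% against 3.24% of all genes there.

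**Figure D3:**
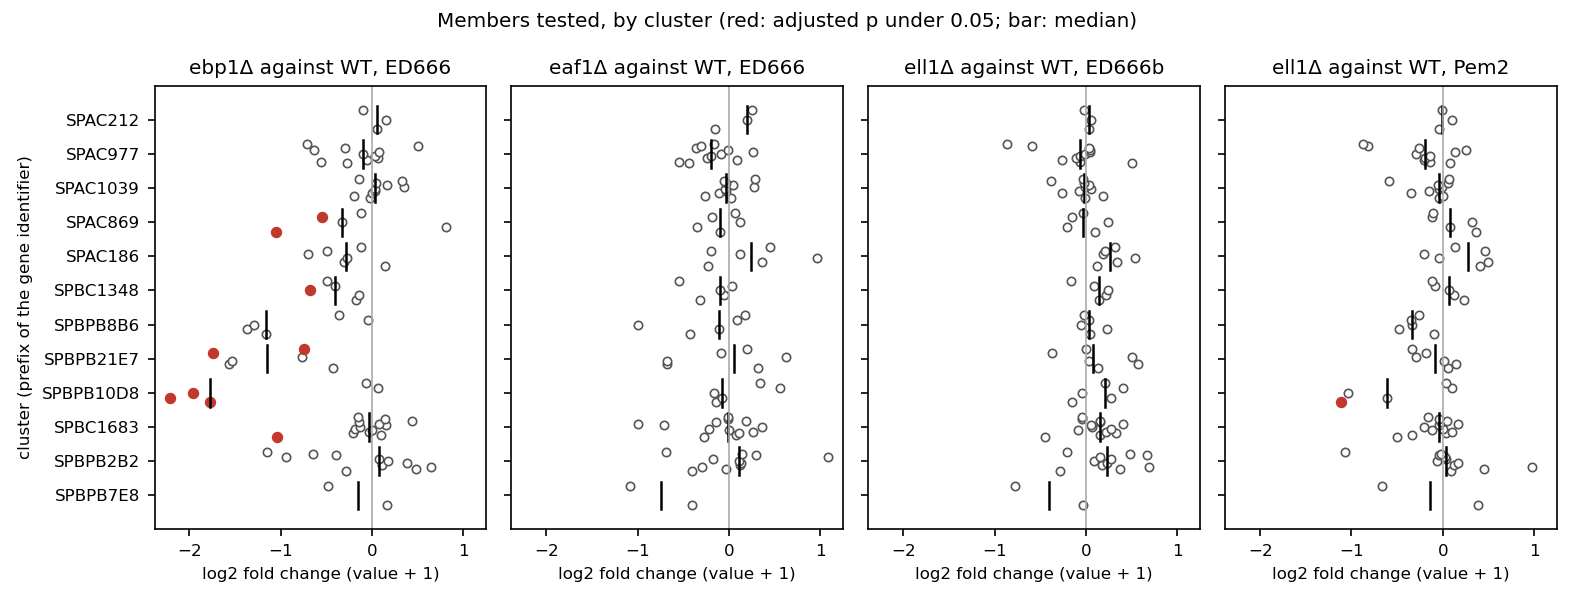
Log2 fold change of the 82 members tested, by cluster from the left end of chromosome I (top) to the right end of chromosome II and SPBPB7E8 (bottom), in 4 deletions against their own wild type. Red points passed an adjusted p of 0.05 and bars are cluster medians; the medians of SPBPB8B6 (no member called), SPBPB21E7 and SPBPB10D8 are the lowest in ebp1Δ (-1.16, -1.15 and -1.78), while their medians in eaf1Δ lie between -0.10 and 0.05.

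Among the members, no gene passed the test on loss of Eaf1. In limma 0 of the 82 passed and 13 had an unadjusted p under 0.05, which is 15.85% against 13.13% of all genes. Of all genes 0.844% were called (0.519% higher and 0.325% lower). The edgeR test on recovered reads also called 0, with 11 under an unadjusted p of 0.05. Without wild-type replicate 3 limma called 0 as well. The comparison shares its wild-type libraries with the ebp1Δ comparison. SPBPB7E8.01, an uncharacterised gene far from any chromosome end, came closest, with 114, 109.9 and 113 scaled CPM in eaf1Δ against 244, 205 and 275 in wild type. The groups were well apart, but the change of -1.09 (SE 0.23) had a limma adjusted p of 0.0523, and it passed when the fit held only the compared libraries (0.0377). Its neighbour SPBPB7E8.02 had 20.9, 17.6 and 31.1 in eaf1Δ and 26.0, 21.7 and 48.7 in wild type, which overlap. The cell surface gene pfl9, of the DIPSY glycoprotein family, had 8.09, 10.6 and 11.2 in eaf1Δ and 6.99, 7.14 and 6.78 in wild type (log2 0.45, SE 0.10; limma, adjusted p = 0.0635). Without eaf1Δ replicate 1 pfl9 passed (log2 0.58; limma, adjusted p = 0.00969), and without wild-type replicate 1 SPAC186.08c, with at most 6 reads in any ED666 library, was the single call (log2 0.52; limma, adjusted p = 0.0455). Over the members tested, 7 had all eaf1Δ libraries above and 9 all below wild type, which is 8.54% and 11.0%, against 7.22% and 7.68% of all genes. The authors' deposited table has SPBPB7E8.01 lower (log2 -1.10, adjusted p = 2.83e-14) and the phosphatase gene SPBPB2B2.06c higher (log2 1.37, adjusted p = 0.0264) in eaf1Δ, where 1.28% of all genes are called.

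Set directly against ebp1Δ, without any wild-type library in the contrast, 10 members were higher and 1 was lower in eaf1Δ; the 3 ebp1Δ libraries are those of the comparison with wild type. Of the 10, 3 lie in SPBPB10D8, 3 in SPBPB21E7 and 4 outside the 3 clusters picked out above, and no member of SPBPB8B6 was called; of all genes tested, 2.97% were called, with 2.35% higher and 0.617% lower. All 6 tested members of SPBPB21E7, all 5 of SPBPB8B6 and all 5 of SPBPB10D8 were positive, with medians of 0.91, 0.54 and 1.63. SPBPB10D8.01 had 71.1, 77.9 and 73.2 scaled CPM in eaf1Δ, against 18.2, 21.4 and 31.7 in ebp1Δ (log2 1.63, SE 0.15; limma, adjusted p = 0.000119). SPBPB10D8.02c had 76.0, 84.3 and 77.6 in eaf1Δ, against 16.4, 12.7 and 24.4 in ebp1Δ (log2 2.14, SE 0.29; limma, adjusted p = 0.00156). The eaf1Δ libraries were close to each other and far above every ebp1Δ library in both genes. The pseudogenes SPBPB10D8.03 and SPBPB21E7.08 differed by log2 1.79 and 1.66, the asparaginase SPBPB21E7.09 by 0.93, yhb1 by 0.95 and pho841 by 0.77.

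Among members not called in ebp1Δ against wild type, aes1 had 165, 186 and 185 scaled CPM in eaf1Δ, against 63.6, 65.7 and 72.7 in ebp1Δ (log2 1.40, SE 0.33; limma, adjusted p = 0.0417). No wild-type library enters these levels or the log2 change, but the SE and adjusted p use the spread over all 17 libraries. The groups were more than 2-fold apart. The gene pfl9 had 8.09, 10.6 and 11.2 in eaf1Δ and 6.52, 6.61 and 5.86 in ebp1Δ (log2 0.57, SE 0.10; limma, adjusted p = 0.00792). SPAC186.08c had 0.837, 0.447 and 0.674 in eaf1Δ against 0.123, 0 and 0 in ebp1Δ (limma, adjusted p = 0.0153). Those are 6, 4 and 6 reads in eaf1Δ and 1, 0 and 0 in ebp1Δ, in the gene that entered the test only through Pem2 ell1Δ, so little rests on this call. The antiporter gene sod2, which exports sodium, was lower, with 114, 111 and 104 in eaf1Δ against 141, 121 and 147 in ebp1Δ (log2 -0.31, SE 0.07; limma, adjusted p = 0.0425). Counted over libraries, 34 of 82 members had all eaf1Δ libraries above all ebp1Δ ones (41.5%, against 13.1% of all genes), and 10 had them below (12.2%, against 11.0%). Leaving out any 1 library gave 6 to 8 calls: 7 without ebp1Δ replicate 1, eaf1Δ replicate 2 or eaf1Δ replicate 3, and 6 without ebp1Δ replicate 3 or eaf1Δ replicate 1. Over all genes it gave 103 to 152 calls, against 183 with all libraries. The calls of yhb1, pho841 and aes1 were lost without any 1 of the 6, with adjusted p of at most 0.135, 0.164 and 0.130. That of sod2 was lost without any of 5 and that of SPAC186.08c without any of 4, at most 0.175 and 0.0784.

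On loss of Ell1 in ED666b no member was called: 0 of 82 in limma and 0 in edgeR. Of all genes 0.519% were called (0.406% higher and 0.114% lower). Under an unadjusted p of 0.05 were 4 members in limma, 4.88% against 5.76% of all genes, and 7 in edgeR. SPBPB7E8.01 had 88.0 and 152 scaled CPM in ell1Δ, against 149 and 266 in wild type, and the groups overlapped, though ell1Δ was lower within each replicate number (log2 -0.78; limma, adjusted p = 0.686). The MIP family gene SPAC977.17 had 21.8 and 38.0 in ell1Δ, against 43.5 and 65.2 in wild type (log2 -0.86; limma, adjusted p = 0.709). SPBPB10D8.01 had 124 and 134 in ell1Δ, against 136 and 149.7 in wild type, which is a log2 change of -0.15. Members with all ell1Δ libraries above wild type numbered 17 (20.7%, against 20.3% of all genes) and those with all below 10 (12.2%, against 17.4%). The authors' deposited table has SPAC977.17 (log2 -0.86, adjusted p = 0.0243) and pho841 (log2 -0.45, adjusted p = 0.0497) lower, and calls 1.58% of all genes.

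In Pem2 ell1Δ SPBPB10D8.01 fell, the 1 member called, while 0 rose; 0.0649% of all genes fell and 0.179% rose. It had 51.0 and 40.3 scaled CPM in ell1Δ, against 98.9 and 99.3 in wild type (2.16-fold lower, log2 -1.11, SE 0.19; limma, adjusted p = 0.0286). The call was lost on leaving out any of the 4 Pem2 libraries and with only the compared libraries in the fit, with log2 changes between -1.28 and -0.94 over the 11 alternatives and adjusted p between 0.00324 and 0.518. The edgeR test on recovered reads called it and the repeated asparaginase SPAC977.12 (104 and 108 in ell1Δ, 126 and 134 in wild type). The pseudogene SPBPB10D8.03 had 4.88 and 5.68 in ell1Δ and 9.33 and 15.2 in wild type (log2 -1.04; limma, adjusted p = 0.856), and SPBPB10D8.02c had 20.4 and 26.0 in ell1Δ and 28.5 and 44.6 in wild type (log2 -0.61). Neither pair of groups overlapped, yet neither was called. SPAC977.17 had 26.5 and 24.3 in ell1Δ against 44.1 and 50.4 in wild type (log2 -0.87), and pho841 had 205 and 184 against 306 and 249 (log2 -0.50). Members with all ell1Δ libraries below wild type numbered 26 (31.7%, against 18.7% of all genes), and those with all above 14 (17.1%, against 19.2%). The authors' deposited table has SPAC977.17, pho841, SPBPB10D8.01 and SPBPB10D8.03 lower and gal10 higher in Pem2 ell1Δ, and calls 1.33% of all genes.

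The test of the difference between the ell1Δ effects in Pem2 and ED666b called 0 members in limma and 0 in edgeR, beside 0.0325% of all genes. Under an unadjusted p of 0.05 were 3 members in limma, 3.66% against 1.01% of all genes, and 4 in edgeR. For SPBPB10D8.01 the Pem2 effect minus the ED666b effect was -0.96 on the log2 scale (SE 0.26; limma, adjusted p = 0.9997). So the fall in Pem2 and the smaller change in ED666b were not shown to differ. Strain and library set cannot be told apart here.

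Between wild types, Pem2 and ED666b gave no call: 0 members in limma and 0 in edgeR. Of all genes 0.0812% were called (0.0487% higher and 0.0325% lower). Under an unadjusted p of 0.05 were 9 members in limma, 11.0% against 5.83% of all genes, and 12 in edgeR. The maltase gene mal1 had 76.6 and 78.9 scaled CPM in Pem2 wild type, against 45.0 and 50 in ED666b wild type (log2 0.70; limma, adjusted p = 0.636). The wild-type groups did not overlap, with Pem2 higher, as in 22.8% of all genes and 17.1% of the members. Among the ell1Δ libraries mal1 had 66.8 and 68.0 in Pem2 and 46.3 and 53.8 in ED666b. All 10 members of SPAC1039, picked out here after the values were seen, had a negative difference, with a median of -0.27, and 0 were called. Over all members tested 38 differences were positive and 44 negative, and the median of all genes was 0.001.

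ED666b and ED666 wild type have the same genotype in the labels, and their comparison shows how far members move between sets. In ED666b 8 members were higher and 1 was lower, beside 17.9% of all genes higher and 4.03% lower; the members' 11.0% is below the 21.9% of all genes. The median of all genes shifted by 0.13 between these sets, so part of every value is shared. After quantile normalization the shift was 0.01, all genes split into 335 higher and 396 lower where the deposited scaling gave 1100 and 248, and 2 members were higher and 2 lower. The clearest case was ftm5, of a family of transmembrane-helix proteins at the chromosome ends. It had 2.13 and 2.60 scaled CPM in ED666b wild type, against 0.304, 0.446 and 0 in ED666 wild type (log2 1.44, SE 0.15; limma, adjusted p = 0.000136). All 8 ED666b and Pem2 libraries had 2.13 to 3.38, and none of the 9 ED666 libraries exceeded 0.446, which is no more than 3 reads. Its sequence is 100% repeated, and depth moves with the set. SPBPB10D8.01 was higher too, with 136 and 149.7 in ED666b wild type against 78.5, 85.8 and 81.3 in ED666 wild type (log2 0.80, SE 0.17; limma, adjusted p = 0.00653).

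The remaining calls between sets were smaller or less steady. Higher in ED666b wild type were pan5 (log2 0.38), the asparaginase SPAC977.12 (0.25), the glycosyl hydrolase SPBC1683.04 (0.35), the carboxylic acid transporter SPAC1039.04 (0.30), gdt1 (0.92) and nrg1 (1.69), and the hexose transporter gene ght7 was lower (-0.79). The adjusted p in limma lay between 0.00906 for pan5 and 0.0499 for nrg1. The count fell to 2 without ED666b wild-type replicate 1 and to 4 without replicate 2, and it was 0 with only the compared libraries in the fit. Calls over all genes fell too, from 1348 to 673, 584 and 25 in these settings. Without replicate 1 the calls of ftm5 and SPBPB10D8.01 were left, and without replicate 2 those of ftm5, pan5 and ght7, beside 1 other member. Without ED666 wild-type replicate 1 or replicate 2 the calls of SPBC1683.04, SPAC1039.04 and nrg1 were lost, and without replicate 3 that of nrg1.

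**Figure D4:**
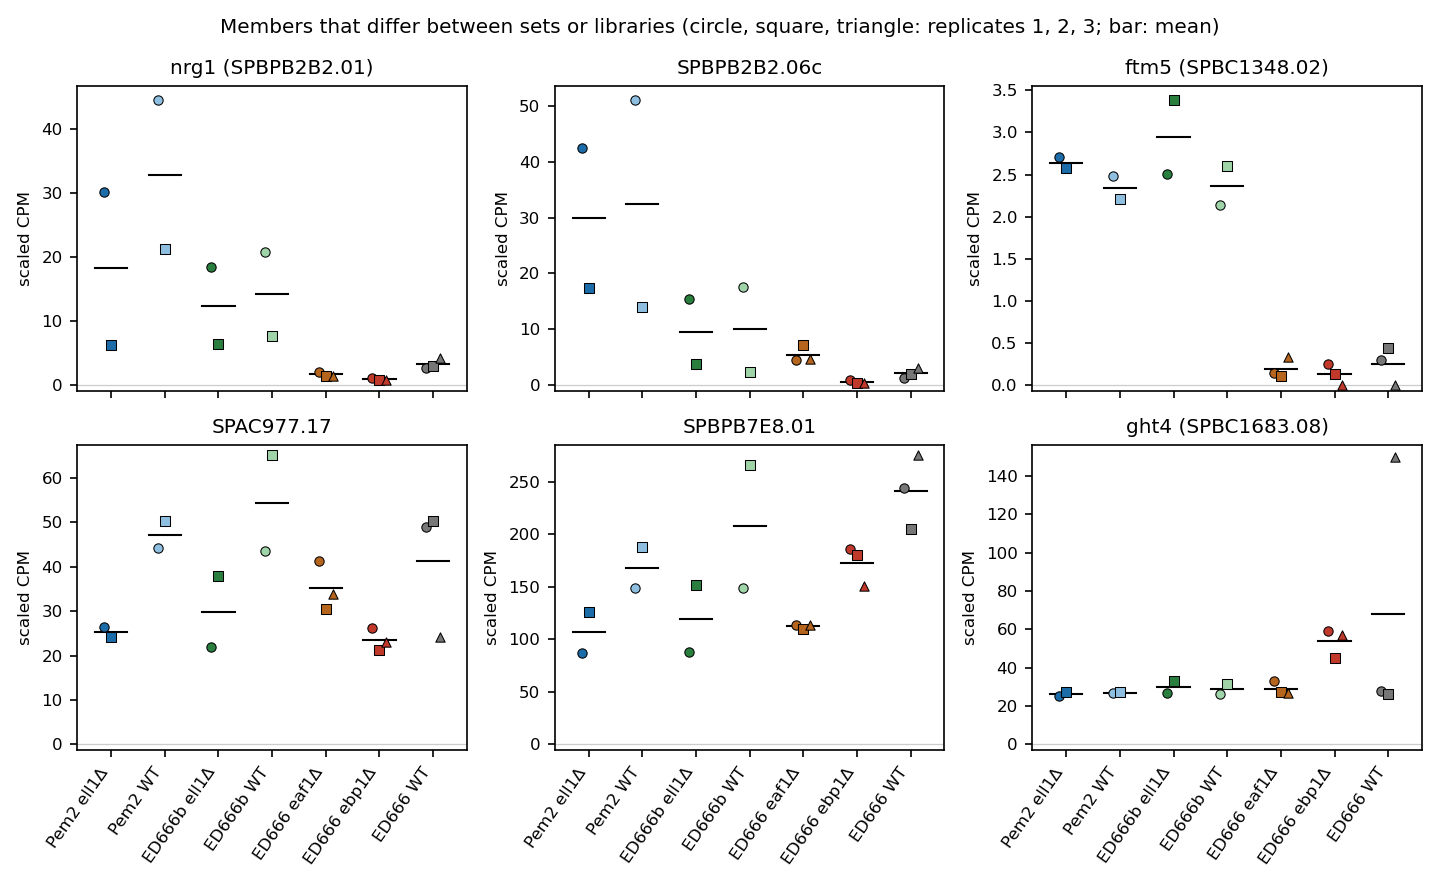
Level in scaled CPM of 6 members in each of the 17 libraries, by group; marker shapes are replicate numbers and bars are means. The panels of nrg1 and SPBPB2B2.06c show replicate 1 above replicate 2 in every Pem2 and ED666b group, ftm5 is at most 0.446 in all ED666 libraries, and ght4 has 1 wild-type library at 149.8.

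The widest range of group means fell on the right of chromosome II. For SPBPB2B2.06c, a phosphatase gene, it spanned 4.19 on the log2 scale, and for nrg1, which encodes an amino acid permease, 4.05; SPBPB10D8.01, SPBPB10D8.02c and SPBPB10D8.03 followed with 2.57, 2.22 and 2.03. SPBPB2B2.06c had 42.5 and 17.4 scaled CPM in Pem2 ell1Δ, 51.0 and 13.9 in Pem2 wild type, 15.3 and 3.74 in ED666b ell1Δ and 17.5 and 2.38 in ED666b wild type. In ED666 it had 4.46, 7.14 and 4.72 in eaf1Δ, 0.861, 0.405 and 0.428 in ebp1Δ and 1.22, 1.93 and 3.11 in wild type. Replicates 1 and 2 of every Pem2 and ED666b group were thus over 2-fold apart, and the ED666 groups did not overlap each other. No limma contrast called this gene (ebp1Δ against wild type, log2 -0.95; limma, adjusted p = 0.499). The level of nrg1 was 30.2 and 6.32 in Pem2 ell1Δ, 44.5 and 21.2 in Pem2 wild type, 18.4 and 6.36 in ED666b ell1Δ and 20.8 and 7.68 in ED666b wild type. In ED666 it was 1.45 to 2.09 in eaf1Δ, 0.809 to 1.11 in ebp1Δ and 2.73 to 4.24 in wild type, with no overlap. Both genes were picked for their range. Pair by pair, 7.22% to 13.1% of all genes separated in the same directions. Gaps between replicates were commoner among members than among genes at large. In the 4 groups of 2 libraries, replicates 1 and 2 differed by 1 or more on the log2 scale in 2.44% to 8.54% of members. The share of all genes was 0.406% to 0.666%.

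Gene families within the clusters behaved unevenly. In the galactose genes of SPBPB2B2, gal10 had 33.7 and 19.1 scaled CPM in Pem2 ell1Δ against 13.2 and 11.7 in wild type, and 45.7 and 24.6 in ED666b ell1Δ against 24.8 and 16.7 in wild type. It also had 40.5, 24.0 and 27.4 in ebp1Δ against 11.1, 9.07 and 61.7 in wild type. The groups did not overlap in Pem2, overlapped narrowly in ED666b, where ell1Δ was higher within each replicate number, and overlapped through wild-type replicate 3 in ED666, and limma called none of the 3 comparisons. The genes of the galactokinase, gal1, and of the uridylyltransferase, gal7, had ell1Δ changes of 0.46 and 0.17 in Pem2 and 0.37 and 0.24 in ED666b. Of the 4 asparaginase genes, SPAC977.12 and SPBPB8B6.05c averaged 75.6 and 52.0 RPKM, SPBPB21E7.09 12.1 RPKM and SPAC186.03 0.140 RPKM, and more than 50% of the sequence of each is repeated. In ebp1Δ the log2 changes were -0.10 for SPAC977.12, -0.04 for SPBPB8B6.05c and -0.74 for SPBPB21E7.09, and SPAC186.03 was not tested. The fluoride channel genes fex1 and fex2, 74.1% and 74.2% repeated, had changes of 0.03 and -0.36 in ebp1Δ, neither called with all libraries. Without wild-type replicate 3 fex2 was called (log2 -0.66). Of the 6 ftm genes, ftm1 and ftm5 were tested; the others averaged 0.353 scaled CPM or less.

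Genes for heterochromatin and telomere proteins were looked at beside the clusters, as 36 factors such as clr4 (the histone H3 methyltransferase), swi6, taz1 and the RNAi genes ago1 and dcr1. All 36 were tested. None was called in ebp1Δ, where their changes lay between -0.19 and 0.25, and none in ell1Δ of either strain. In eaf1Δ stc1, which links RNAi to histone methylation, rose (log2 0.35, SE 0.07; limma, adjusted p = 0.0309), the 1 call among the 36, beside 0.519% of all genes. Between ED666b and ED666 wild type 14 were higher and 1 was lower, beside 17.9% of all genes higher and 4.03% lower. Their median was 0.22, beside the shift of 0.13 in all genes. These values use the deposited scaling. It called 1100 of all genes higher and 248 lower, against 335 and 396 after quantile normalization.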

How the data were processed

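PolyA RNA-seq was used from 17 of 40 samples; the other 23 are chromatin samples and were not analysed here. Columns were joined to samples by name, except that the ebp1Δ columns carry a code found in no label and were joined as the ones left once all others were matched. The columns headed cpm in the authors' deposited table hold a signal, made by the authors by multiplying whole reads per gene by 1 constant per library (100% whole within 0.01), and called scaled CPM here. Library sums run from 915972 to 1045682. The deposited RPKM values, per the file headers, served for levels between genes. The authors' log2 fold changes and p-values stand in the deposited table and are quoted as theirs. TopHat2 2.1.1, SAMtools 1.3.1, edgeR and the build ASM294v2 are named, per the submitters' processing notes; no source used here gives the counter, the use of strand or the treatment of multiply mapped reads.

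Genes at 1 or more scaled CPM in at least 2 libraries (6160 of 7013) were fitted with limma 3.58.1 in R 4.3.3: log2(scaled CPM + 1), 7 group means over all 17 libraries, trend and robust off, Benjamini-Hochberg adjustment over 6160 genes, threshold 0.05. The design foresaw CPM or counts; the signal was tested in the way planned for CPM, and edgeR 4.0.16 on recovered reads was an alternative. Other alternatives were a pseudocount of 0.25, no filter, a filter on the mean, quantile normalization, a fit of the compared libraries, a replicate block and leaving out each library. The fit was tested on simulated data. A floor of 3 reads was 0.0704 to 0.456 scaled CPM, and covers counting error only. Names, products and gene order come from RefSeq ASM294v3 (6845 of 7013 identifiers matched, all 126 members); since the builds differ, no coordinates or sequences are given. Copies were measured as the share of 50-base words of a gene found more than once in ASM294v3, in place of protein identity. Members named are those called (up to 10 per direction), the highest RPKM of each cluster and the 5 widest ranges; others were chosen after their values were seen. The members, lists and tests were chosen with earlier results of these data known.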

Additional observations from a re-analysis of the deposited data

How the results depend on the processing

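Counts of called members are given with limma and an adjusted p of 0.05 unless stated. In ebp1Δ against wild type 9 calls became 4 with the compared libraries alone, of which 2 were among the 9, and 5 to 17 with 1 library left out. In eaf1Δ against wild type 0 became 1 with the compared libraries alone and 0 to 1 with 1 library left out. In Pem2 ell1Δ 1 became 0 with the compared libraries alone, 2 in edgeR and 0 whichever library was left out. In eaf1Δ against ebp1Δ 11 became 20 with the compared libraries alone and 6 to 8 with 1 left out. In ED666b against ED666 wild type 9 became 4 after quantile normalization, 0 with the compared libraries alone and 2 to 11 with 1 left out. Leaving aside the counts moved by the replicate block, given below, the other 75 settings run kept these counts within 1.5 times. Over all genes, the compared libraries alone gave 65 calls in ebp1Δ against 226 and 11 in eaf1Δ against 52. They gave 0 in Pem2 ell1Δ against 15 and 25 between ED666b and ED666 wild type against 1348. In eaf1Δ against ebp1Δ the count rose, to 323 from 183. The fit of the compared libraries has fewer libraries behind its spread. With 1 library left out, calls over all genes ran from 134 to 368 in ebp1Δ against wild type. They ran from 103 to 152 in eaf1Δ against ebp1Δ and from 584 to 1728 between ED666b and ED666 wild type. Fold changes of called members, each in the comparison that called it, reversed under no setting run. Members not called could change sign: SPBPB10D8.04c was at 0.07 in ebp1Δ with all libraries and at -0.22 without wild-type replicate 3.

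With replicate number as a block, ebp1Δ against wild type gave 18 calls (16 lower, 2 higher), beside 5.52% of all genes against 3.67% without the block, and eaf1Δ against wild type gave 1. The block left 0 calls in ED666b ell1Δ and 1 in Pem2 ell1Δ. The labels do not say that numbers mark a shared culture or day. Same-numbered libraries of ED666 groups correlated between -0.219 and 0.243, ell1Δ and wild type at 0.653 in ED666b and 0.657 in Pem2, Pem2 and ED666b wild type at 0.424, and ED666b and ED666 wild type at -0.079 and 0.095, which, with 2 pairs in each of the ED666b and Pem2 groups, was not taken as a pairing.

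Depth limits the ED666 libraries most: their floor of 3 reads lies above the mean level of many members nearest the ends, in which a fall would not be detectable at this depth.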
